A study of Mus musculus with 4 samples.

Results

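The comparison described here sets *Stat5*-deficient cells cultured with IL-3 against control cells cultured without it. Both libraries came from mouse bone marrow-derived macrophages (BMMs) that were being differentiated to osteoclasts with M-CSF and RANKL for 24 h. On 1 side were *Stat5* cKO BMMs, which received IL-3 at 1 ng/mL on top of RANKL at 100 ng/mL and M-CSF at 30 ng/mL. On the other were *Stat5* fl/fl BMMs, which received M-CSF and RANKL at these doses and no IL-3. It addresses which genes still differ from the plain RANKL state when IL-3 is present but STAT5 is absent. Genotype and cytokine differ together, so what each contributes cannot be told apart from this pair alone. All genes at 1 FPKM or more in at least 1 of both libraries were members, 10459 of the 23920 genes in the table, and 10430 were compared after 29 small RNA genes were left out. FPKM is the number of sequenced fragments scaled to transcript length and library size.

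All mice were C57BL/6, carried floxed *Stat5a* and *Stat5b*, and had received poly I:C, an inducer of type I interferon, as young pups. The cKO mice also carried Mx1-Cre, in which an interferon-inducible promoter drives the recombinase, and this promoter is active well beyond the osteoclast lineage. The controls were littermates. The labels give an age of 8 weeks and the methods 6 weeks for osteoclast cultures. Control BMMs without RANKL and control BMMs that had IL-3 as well as RANKL were used only to place the levels, in the order M-CSF, RANKL, RANKL with IL-3, and cKO with RANKL and IL-3. The contrasts of IL-3 against RANKL in control cells, and of cKO against control cells with IL-3, each share a library with the main one, so only the levels are set side by side.

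RANKL, the ligand of RANK, drives macrophage precursors to become osteoclasts through NF-kB, c-Fos and NFATc1, which turn on the genes for acid and protease secretion and for cell fusion. Commitment to this fate goes with loss of genes of the macrophage program, chemokines and Fc receptors among them. IL-3 signals through its specific alpha chain and the shared beta chains to JAK2 and STAT5, and also to the ERK and PI3K pathways.

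There was 1 library per condition, so no difference between conditions could be tested, and nothing is known of the spread between cultures or mice. The depth was estimated at 33.1 to 36.8 M fragments per library, and the FPKM sums lay between 507691 and 544287. *Stat5a* was at 9.89, 10.8, 12.0 and 0.17 FPKM in the 4 libraries and *Stat5b* at 10.8, 7.80, 8.86 and 0.19 FPKM, so the cKO library carried little of either targeted transcript. The labels call all 4 mice male, but *Xist*, which is transcribed from the inactive X chromosome of females, was at 36.1, 47.0, 31.9 and 36.9 FPKM, and the Y-linked genes *Ddx3y*, *Uty*, *Eif2s3y* and *Kdm5d* were at 0 in all 4. The sex label thus went against the data in every library alike. The cultures with RANKL are labelled osteoclast, and the one without it osteoclast precursor. Yet *Calcr*, the calcitonin receptor of mature osteoclasts, was at 0 in all 4 libraries. *Oscar*, a costimulatory receptor, was at most 0.70 FPKM. Of the other fixed markers, *Acp5*, *Ctsk*, *Mmp9*, *Nfatc1*, *Dcstamp*, *Ocstamp* and *Atp6v0d2* were present with RANKL, and *Itgb3* was at 0.82 FPKM there.

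Most genes differed little between the cKO cells with IL-3 and the control RANKL cells, though no replicate pair shows what share to expect. Of 10430 genes, 98.7% lay within 2-fold and 95% within 1.5-fold on the log2(FPKM + 1) scale, with a median ratio of -0.02 and an interquartile range from -0.13 to 0.10. At least 2-fold higher in cKO with IL-3 were 101 genes (0.968% of those compared), and at least 2-fold lower were 38 (0.364%), 139 in all (1.33%). At 4-fold, 15 genes were higher and 5 lower. The genes just past the higher limit were *Ctsc* (113 and 226 FPKM) and *Dusp6* (9.25 and 19.5 FPKM), and just short of it were *Rtp4* (22.6 and 46.2 FPKM), *Ms4a6d* (27.4 and 55.9 FPKM) and *S1pr1* (1.16 and 3.32 FPKM). The gene just past the lower limit was *Fosl2* (82.2 and 40.5 FPKM), and among those just short of it was *Hist1h2bg* (11.7 and 5.43 FPKM). Near the limit of 1 FPKM, *Olfr613* (1.00 and 0.86 FPKM) was a member by the control library and *Ccdc166* (1.00 and 0.76 FPKM, the first just under the limit) was not.

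**Figure D1:**
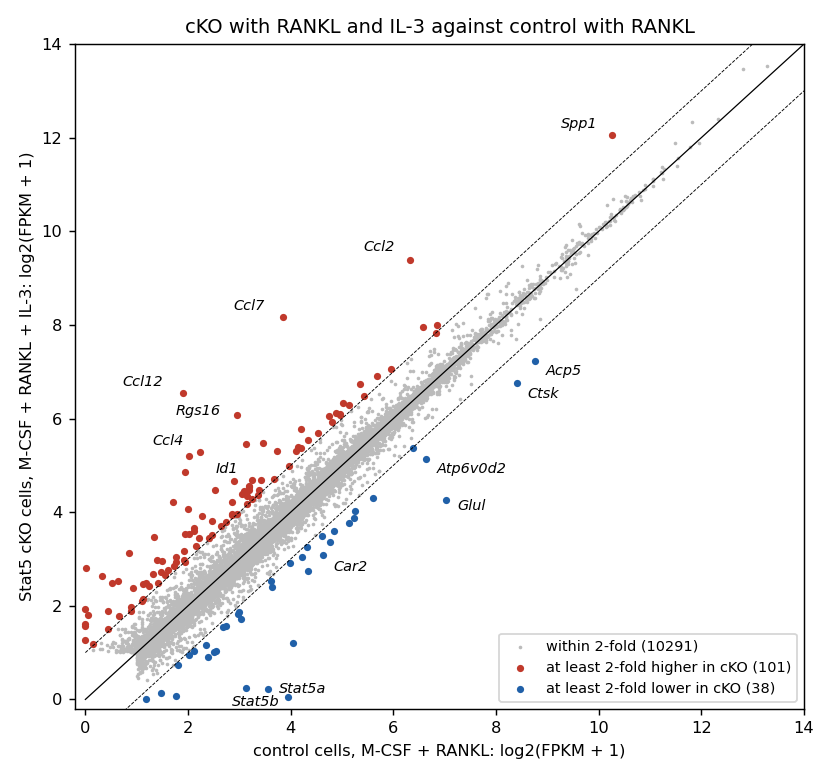
Level of each compared gene, log2(FPKM + 1), in control cells with M-CSF and RANKL (x axis) and in *Stat5* cKO cells cultured with IL-3 in addition (y axis), with 1 library on each axis. Dashed lines mark 2-fold differences, and 10291 genes lie between them, 101 above and 38 below, with the chemokine genes *Ccl12* and *Ccl7* farthest above and the osteoclast genes *Ctsk* and *Acp5* below.

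Among the higher genes, CC chemokines stood out by size. They attract monocytes and lymphocytes. Of the 10 measured, 6 were at least 2-fold higher, against 0.968% of all genes compared, and none lower. The list median was 2.05, against -0.02 over all genes. *Ccl12*, a ligand of CCR2, had the highest ratio of any gene: it was at 77.4, 2.76, 944 and 92.1 FPKM in the 4 libraries, a ratio of 4.63 on the log2(FPKM + 1) scale. Without the added 1 FPKM the log2 ratio was 5.06 ± 0.40 (95% interval for counting error only, from about 52 and 1820 fragments). *Ccl7*, another monocyte attractant, was at 461, 13.5, 2407 and 287 FPKM (ratio 4.31). *Ccl2*, the main ligand of CCR2, was at 1234, 79.2, 3942 and 667 FPKM (ratio 3.06). For all of these the RANKL library was lowest and the control library with IL-3 highest, and the cKO library lay within 2-fold of the M-CSF library.

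Other genes of the family gave the same order of libraries at the ends. *Ccl4* and *Ccl3* encode inflammatory attractants of monocytes and T cells. *Ccl4* was at 85.4, 3.68, 470 and 38.1 FPKM (ratio 3.06) and *Ccl3* at 25.5, 6.49, 263 and 24.5 FPKM (ratio 1.77). *Ccl6*, a CCR1 ligand of myeloid cells, was at 94.3, 7.72, 1866 and 43.0 FPKM (ratio 2.34). The other 4 measured members were less than 2-fold apart. *Ccl9*, another CCR1 ligand that osteoclast precursors secrete, was at 163, 175, 547 and 147 FPKM (ratio -0.25), and *Ccl5*, a T cell attractant, was at 5.77, 6.62, 4.99 and 10.4 FPKM (ratio 0.58). The remaining 7 entries of the list were under 1 FPKM in both libraries compared. These include *Ccl17*, a ligand of CCR4, which was at 22.4 FPKM in the control library with IL-3 and at 0.18 and 0.09 FPKM in the RANKL and cKO libraries.

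CXC chemokines were higher in 4 of 7 measured, against 0.968% of all genes compared, with a list median of 1.14. *Cxcl3*, a neutrophil attractant, was at 2.27, 1.54, 346 and 10.0 FPKM (ratio 2.12), and *Cxcl2*, of the same kind, was at 3.00, 1.80, 69.9 and 6.72 FPKM (ratio 1.46). *Pf4*, a platelet factor that macrophages also make, was at 657, 115, 1782 and 255 FPKM (ratio 1.14). *Pf4* is also an entry of the erythroid and megakaryocyte list, of which 10 of 12 were under 1 FPKM in both libraries. Of 12 chemoattractant receptors measured, 1 was 2-fold apart, against 1.33% of all genes compared. It was *C5ar1*, the receptor of complement C5a, at 203, 29.96, 115 and 67.6 FPKM (ratio 1.15). *Ccr2* was at 49.2, 8.59, 46.6 and 7.66 FPKM (ratio -0.15), so the receptor of CCL2, CCL7 and CCL12 was not above the RANKL level where the genes of these ligands were.

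**Figure D2:**
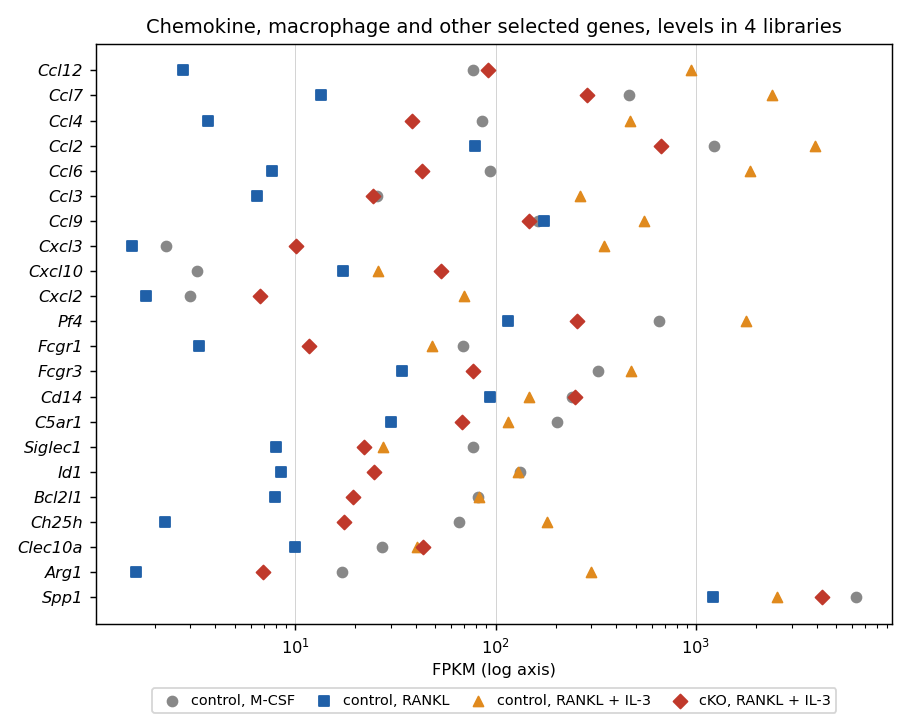
FPKM on a log axis of chemokine genes, macrophage surface genes and other selected genes in each of 4 libraries, 1 library per marker with no replicate. The RANKL library (square) is lowest in most rows, the cKO library with IL-3 (diamond) lies to its right in all rows but that of *Ccl9*, and the control library with IL-3 (triangle) is far to the right for the CC chemokines, at 944 FPKM for *Ccl12*.

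Macrophage genes lay mostly above the RANKL level, though few by 2-fold. Of 26 measured, 5 were 2-fold higher and 1 lower, against 0.968% and 0.364% of all genes compared. In all 21 had a ratio above 0, and the list median was 0.68. *Fcgr1*, the high-affinity receptor for IgG, was at 69.0, 3.32, 48.3 and 11.7 FPKM (ratio 1.56), and *Fcgr3*, a low-affinity one, was at 324, 34.1, 474 and 77.0 FPKM (ratio 1.15). *Cd14*, a coreceptor for lipopolysaccharide, was at 240, 93.9, 147 and 249 FPKM (ratio 1.39). *Siglec1*, a sialic acid receptor of tissue macrophages, was at 76.9, 8.06, 27.3 and 22.1 FPKM (ratio 1.35). For *Cd14* the cKO library had the highest level of all 4, whereas for *Fcgr1* and *Fcgr3* it lay between the RANKL library and the other controls. *Trem1*, an amplifier of inflammatory signals, was at 12.6, 1.35, 19.2 and 4.39 FPKM (ratio 1.20).

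Other macrophage markers were near the RANKL level. *Csf1r*, the M-CSF receptor gene, was at 670, 227, 365 and 269 FPKM (ratio 0.24), *Cd68* at 972, 757, 810 and 726 FPKM (ratio -0.06) and *Apoe* at 639, 221, 266 and 220 FPKM (ratio 0.00). *Marco*, a scavenger receptor, was the member 2-fold lower, at 31.1, 19.1, 30.6 and 5.74 FPKM (ratio -1.58), which made the cKO library the lowest of 4. The components of complement C1q were not alike. *C1qa* had a ratio of 1.00, just short of the limit, *C1qc* of 0.33 and *C1qb* of -0.31.

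Genes of alternative macrophage activation were higher in 3 of 13 measured, against 0.968% of all genes compared, with a median of 0.42. *Arg1*, which encodes arginase, was at 17.2, 1.62, 298 and 6.92 FPKM (ratio 1.60). The lectin gene *Mgl2* was at 2.12, 0.56, 145 and 4.77 FPKM (ratio 1.89) and its neighbour *Clec10a* at 27.2, 10.0, 40.7 and 43.2 FPKM (ratio 2.01). The levels of *Arg1* and *Mgl2* in cKO cells were thus a small part of those in control cells with IL-3, while *Clec10a* reached a similar level in both. *Chil3*, a chitinase-like protein, was at 69.8, 39.2, 67.7 and 19.8 FPKM (ratio -0.95). Further surface and secreted proteins among the higher genes were *Spp1*, encoding osteopontin (6298, 1216, 2548 and 4229 FPKM, ratio 1.80), *Pilra*, *Cd300ld* and *Cd300lf* of the inhibitory and paired receptors (3 of 19 measured), and the ferroportin gene *Slc40a1*, which exports iron (57.4, 1.94, 45.6 and 5.35 FPKM, ratio 1.11). *Ch25h*, which makes the oxysterol 25-hydroxycholesterol, was at 65.4, 2.24, 180 and 17.5 FPKM (ratio 2.51). The ratio of *Cd300lf* fell short of the limit when its most abundant transcript stood for the gene (0.42).

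The genes induced by type I interferon formed the largest group of higher genes. Of 35 measured, 12 were 2-fold higher, against 0.968% of all genes compared, and none lower. All 35 had a ratio above 0, and the list median was 0.74. *Ifit3* and *Ifit1*, which encode proteins that bind foreign RNA or its binding partners, were at 4.51, 3.80, 5.28 and 14.2 FPKM (ratio 1.66) and at 2.94, 3.36, 3.97 and 11.2 FPKM (ratio 1.48). *Isg15*, a ubiquitin-like modifier, was at 13.4, 17.5, 16.1 and 40.1 FPKM (ratio 1.16), and *Rsad2*, which encodes viperin, was at 2.50, 2.42, 3.90 and 7.27 FPKM (ratio 1.27). Here the 3 control libraries lay close together and the cKO library was above all of them, unlike for the CC chemokines. *Irf7*, a transcription factor of this response, was at 34.8, 27.0, 36.8 and 59.6 FPKM (ratio 1.11), and *Cxcl10*, a ligand of CXCR3, was at 3.25, 17.3, 26.0 and 53.4 FPKM (ratio 1.57).

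The other 2-fold higher members were *Usp18*, *Cmpk2*, *Ifit2*, *Mx1*, *Oasl1* and *Oasl2*. *Mx1* was at 1.83, 0.86, 4.24 and 2.91 FPKM (ratio 1.07) and was the only one of the 12 with the control library with IL-3 highest. Transducers of the signal were closer to the RANKL level, with *Stat2* at 15.1, 6.37, 13.4 and 11.7 FPKM (ratio 0.79) and *Irf9* at 26.9, 21.8, 22.9 and 28.3 FPKM (ratio 0.36). Only the cKO mice carried Mx1-Cre, both genotypes had received poly I:C, and the part of either in these values was not tested.

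**Figure D3:**
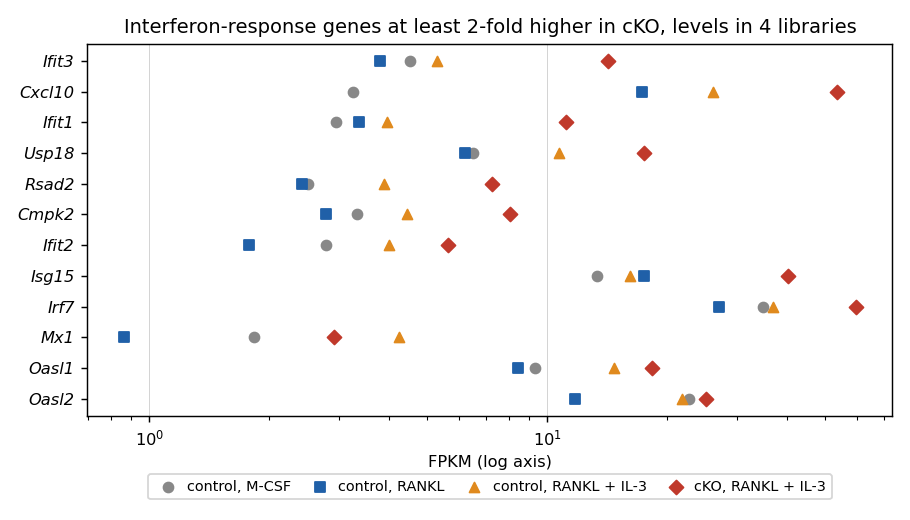
FPKM on a log axis of the 12 interferon-response genes at least 2-fold higher in cKO cells with IL-3 than in control cells with RANKL, in each of 4 libraries with 1 library per marker. The cKO library (diamond) is rightmost in every row but that of *Mx1*, where the control library with IL-3 is at 4.24 and the cKO library at 2.91 FPKM.

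Promoter sequences are shown for 5 of the higher genes, 4 induced by interferon and *Fcgr1*, which interferon and STAT factors are known to control. Each is the stretch of 150 bases before the start of the gene, from RefSeq on GRCm38, 5′ to 3′ on the strand of the gene. Capitals mark matches to GAAANNGAAA, a short form of the interferon-stimulated response element (ISRE), to TGANTCA of AP-1, or to TTCNNNGAA, the gamma-activated site (GAS) that STAT dimers bind. The stretches lie at chr19:34640739-34640888 (+) for *Ifit1*, chr19:34583379-34583528 (+) for *Ifit3*, chr4:156200819-156200968 (-) for *Isg15*, chr12:26456453-26456602 (-) for *Rsad2* and chr3:96293970-96294119 (-) for *Fcgr1*.
Ifit1: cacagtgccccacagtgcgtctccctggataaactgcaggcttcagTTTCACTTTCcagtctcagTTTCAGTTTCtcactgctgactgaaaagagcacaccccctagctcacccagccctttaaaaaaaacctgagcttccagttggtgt
Ifit3: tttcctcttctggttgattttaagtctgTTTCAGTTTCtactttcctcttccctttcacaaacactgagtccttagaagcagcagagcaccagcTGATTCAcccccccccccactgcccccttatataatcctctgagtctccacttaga
Isg15: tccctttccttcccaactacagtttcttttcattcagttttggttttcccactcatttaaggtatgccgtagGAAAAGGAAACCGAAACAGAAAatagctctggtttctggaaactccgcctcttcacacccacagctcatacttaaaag
Rsad2: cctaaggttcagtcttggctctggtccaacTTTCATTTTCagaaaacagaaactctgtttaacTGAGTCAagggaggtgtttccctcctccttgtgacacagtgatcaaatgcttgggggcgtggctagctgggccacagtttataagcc
Fcgr1: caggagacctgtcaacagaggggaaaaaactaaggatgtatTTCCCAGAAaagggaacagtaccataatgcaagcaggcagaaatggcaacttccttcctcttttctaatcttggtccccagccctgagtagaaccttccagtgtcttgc

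*Ifit1* held 2 ISRE-like matches side by side and *Isg15* 3 that overlap into 1 run, whereas *Ifit3* and *Rsad2* each held 1 together with an AP-1 match. The window of *Fcgr1* held the GAS match and no ISRE-like one. Both strands were searched over 250 bases before the start, and all matches are descriptions of letters, not of bound factors. The ISRE-like motif was found in 2.98% of 32851 promoters and in 3.38% of those of the genes compared. It was in 13 of 74 higher genes with a window (17.6%), among them 5 of the 10 higher interferon genes with one. Of all 27 measured interferon genes with a window, 15 (55.6%) held it, so its share was not larger among the higher ones. It was found in 2 of 30 lower genes. The GAS motif was found in 7.02% of all promoters and in 6 of the 74 higher genes (8.11%), a share near that of all promoters. AP-1 matches were in 11 of the 74 (14.9%) and in 5 of 30 lower genes (16.7%), against 6.75% of all promoters. Matches to TTGCNNAA, the motif of C/EBP factors, were in 12 of the 74 (16.2%) and in 2 of 30 lower genes (6.67%), against 9.56% of all promoters.

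Osteoclast genes were on the lower side. Of 33 measured, 8 were 2-fold lower, against 0.364% of all genes compared, and none higher. In all 27 had a ratio below 0, and the list median was -0.40. *Ctsk*, the collagen-degrading cathepsin K, was at 3.60, 338, 25.8 and 107 FPKM (ratio -1.65), and *Acp5*, tartrate-resistant acid phosphatase, was at 12.2, 432, 28.2 and 149 FPKM (ratio -1.53). *Car2*, the carbonic anhydrase that supplies protons, was at 0.43, 23.8, 3.71 and 7.50 FPKM (ratio -1.54). *Atp6v0d2*, a proton pump subunit needed for fusion, was at 2.38, 98.5, 27.5 and 34.1 FPKM (ratio -1.50). For each of these the cKO library lay below the RANKL library and above the M-CSF and IL-3 control libraries. For *Ctsk* counting error was small beside the difference, with a log2 ratio of -1.66 ± 0.04 (95% interval) without the added 1 FPKM.

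The kinase gene *Src*, needed for the ruffled border, was at 0.32, 37.1, 4.55 and 15.2 FPKM (ratio -1.23). *Slc9b2*, a sodium and proton exchanger, was at 1.27, 34.1, 1.48 and 12.5 FPKM (ratio -1.37), and *Myo1d*, an unconventional myosin, was at 0.50, 2.51, 0.83 and 0.66 FPKM (ratio -1.08). Several genes central to the program fell short of the limit, with the cKO value again between RANKL and the other controls. The fusion genes *Dcstamp* (2.51, 44.0, 15.4 and 23.9 FPKM) and *Ocstamp* (0.08, 23.5, 1.35 and 12.5 FPKM) had ratios of -0.85 and -0.86. *Mmp9*, a gelatinase, was at 10.1, 182, 24.0 and 106 FPKM (ratio -0.78). Other subunits of the proton pump differed among themselves. *Tcirg1*, a subunit mutated in osteopetrosis, was at 168, 275, 234 and 220 FPKM (ratio -0.32), and *Atp6v1b2* at 179, 314, 239 and 220 FPKM (ratio -0.51). *Atp6v0a1*, a paralogue of *Tcirg1*, was 2-fold higher, at 62.6, 7.83, 95.4 and 17.0 FPKM (ratio 1.03). Under 1 FPKM in both libraries were *Calcr*, *Oscar*, *Itgb3* and *Rab38*.

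Of 27 osteoclast transcription factors measured, 2 were 2-fold lower, *Prdm1* and *Fosl2*, against 0.364% of all genes compared. None was higher, and the list median was -0.15. *Nfatc1*, the master regulator, was at 13.6, 157, 17.7 and 84.8 FPKM (ratio -0.88). *Prdm1*, encoding the repressor Blimp1, was at 0.84, 23.5, 1.58 and 10.2 FPKM (ratio -1.13), and *Fosl2*, of the AP-1 family, was at 11.1, 82.2, 17.3 and 40.5 FPKM (ratio -1.002). Under scaling to a common median ratio *Fosl2* fell short of the limit (-0.98), and with the most abundant transcript alone *Nfatc1* passed it (-1.09). *Fos*, which encodes c-Fos and lies upstream of *Nfatc1*, was closer to the RANKL level at 42.0, 262, 86.8 and 195 FPKM (ratio -0.42).

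In bulk RNA a smaller number of cells on the way to osteoclasts and less RNA of these genes per cell cannot be told apart. The same holds for more macrophage-like cells and more macrophage RNA per cell.

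**Figure D4:**
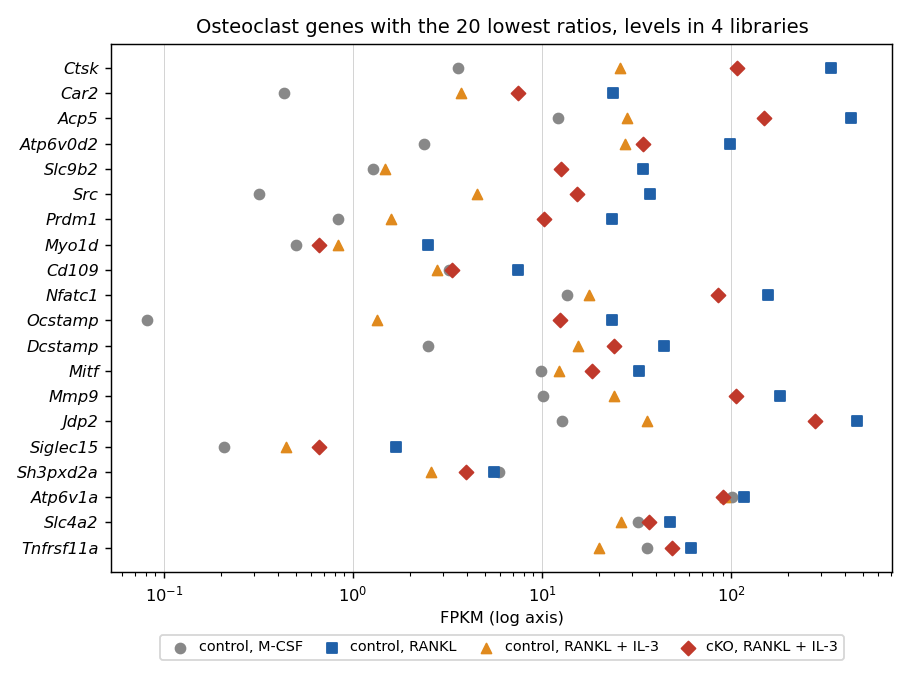
FPKM on a log axis of the 20 measured osteoclast genes with the lowest ratios, in each of 4 libraries with 1 library per marker. In most rows the order from left to right is control with M-CSF, control with RANKL and IL-3, cKO with RANKL and IL-3, and control with RANKL, as for *Ctsk* at 3.60, 25.8, 107 and 338 FPKM.

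Of 20 measured genes that restrain osteoclast differentiation, 1 was 2-fold higher, *Id1*, against 0.968% of all genes compared. The list median was 0.13. *Id1*, an inhibitor of basic helix-loop-helix factors, was at 133, 8.51, 130 and 24.8 FPKM (ratio 1.44). *Id2* and *Id3*, its paralogues, were at 122, 21.6, 201 and 37.6 FPKM (ratio 0.77) and at 126, 28.5, 65.6 and 44.2 FPKM (ratio 0.62). *Irf8*, a macrophage transcription factor that opposes the osteoclast fate, was at 54.3, 5.30, 38.2 and 10.2 FPKM (ratio 0.83). All of these were above the RANKL library in cKO cells and below both other controls.

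Most targets of STAT5 described in other cell types were less than 2-fold from the RANKL level. Of 19 measured, 2 were 2-fold higher, *Id1* and *Bcl2l1*, against 0.968% of all genes compared, and none was lower. The list median was 0.20, with 13 ratios above 0 and 6 below. Short of the limit on the higher side were *Cdkn1a* (165, 75.8, 240 and 144 FPKM, ratio 0.92) and *Ccnd1* (276, 148, 196 and 258 FPKM, ratio 0.79). *Bcl2l1*, encoding the survival protein BCL-XL, was at 81.9, 7.90, 82.5 and 19.3 FPKM (ratio 1.19), and it is the neighbour of *Id1* on chromosome 2. *Pim1*, a survival kinase, was at 7.17, 6.79, 40.4 and 7.72 FPKM (ratio 0.16), and *Osm*, encoding oncostatin M, was at 5.09, 3.27, 23.8 and 2.77 FPKM (ratio -0.18). The feedback inhibitors *Cish* (0.07, 0.07, 14.6 and 0.16 FPKM) and *Socs2* (0.27, 0.60, 9.22 and 0.41 FPKM) were under 1 FPKM in both libraries compared, as were 6 further entries of the list. For *Pim1*, *Osm*, *Cish* and *Socs2* the control library with IL-3 was the highest of the 4. *Myc* was at 38.4, 124, 66.1 and 114 FPKM (ratio -0.12).

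The IL-3 receptor itself was expressed in cKO cells. *Il3ra*, the specific alpha chain, was at 17.0, 11.4, 13.2 and 10.5 FPKM (ratio -0.11). The beta chains *Csf2rb*, shared with GM-CSF and IL-5, and *Csf2rb2*, specific to IL-3, were at 32.2, 64.2, 165 and 41.3 FPKM (ratio -0.62) and at 16.5, 47.3, 52.7 and 29.7 FPKM (ratio -0.65). Of 39 measured receptor and transducer genes 2 were 2-fold apart, the targeted *Stat5a* and *Stat5b*, against 1.33% of all genes compared. The list median was 0.01. The ERK response and feedback list had 1 of 25 higher, *Dusp6*, a phosphatase of ERK (66.2, 9.25, 47.5 and 19.5 FPKM, ratio 1.00), which fell short of the limit under upper quartile scaling (0.98). The list of FOXO targets had 1 of 19 higher, *Klf2*, a quiescence factor, at 30.6, 7.53, 17.5 and 20.8 FPKM (ratio 1.36). The NF-kB response list had 3 of 23 higher, all of them chemokines (*Ccl4*, *Ccl3* and *Cxcl2*), with a median of -0.05. Of all genes compared 0.968% were higher, so 1 member in lists of 25 and 19 says little about either list.

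Of 26 entries of the dendritic cell and antigen presentation list, 14 were measured and 12 were under 1 FPKM in both libraries. None of the 14 was 2-fold apart, against 1.33% of all genes compared, and the median was 0.15. *Itgax*, encoding CD11c, was at 7.78, 10.2, 99.7 and 9.95 FPKM (ratio -0.03). The MHC class II genes *H2-Aa* (44.0, 26.5, 68.7 and 23.8 FPKM) and *H2-Ab1* (32.7, 22.5, 56.8 and 22.3 FPKM) had ratios of -0.15 and -0.01. The costimulatory genes *Cd80* (4.43, 5.22, 11.0 and 8.23 FPKM) and *Cd86* (5.93, 2.43, 10.3 and 3.34 FPKM) had ratios of 0.57 and 0.34. Thus *Itgax* and the class II genes were at the RANKL level in cKO cells and highest in control cells with IL-3. In all, 16 lists with measured genes had none 2-fold apart. At a share of 1.33% over all genes, lists of such length can hold none without differing from other genes. Among them were the SOCS inhibitors (6 measured, median -0.01), glycolysis (21, median 0.10), the respiratory chain (31, median -0.08), cholesterol synthesis (24, median 0.15) and the cell cycle (38, median 0.13).

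**Figure D5:**
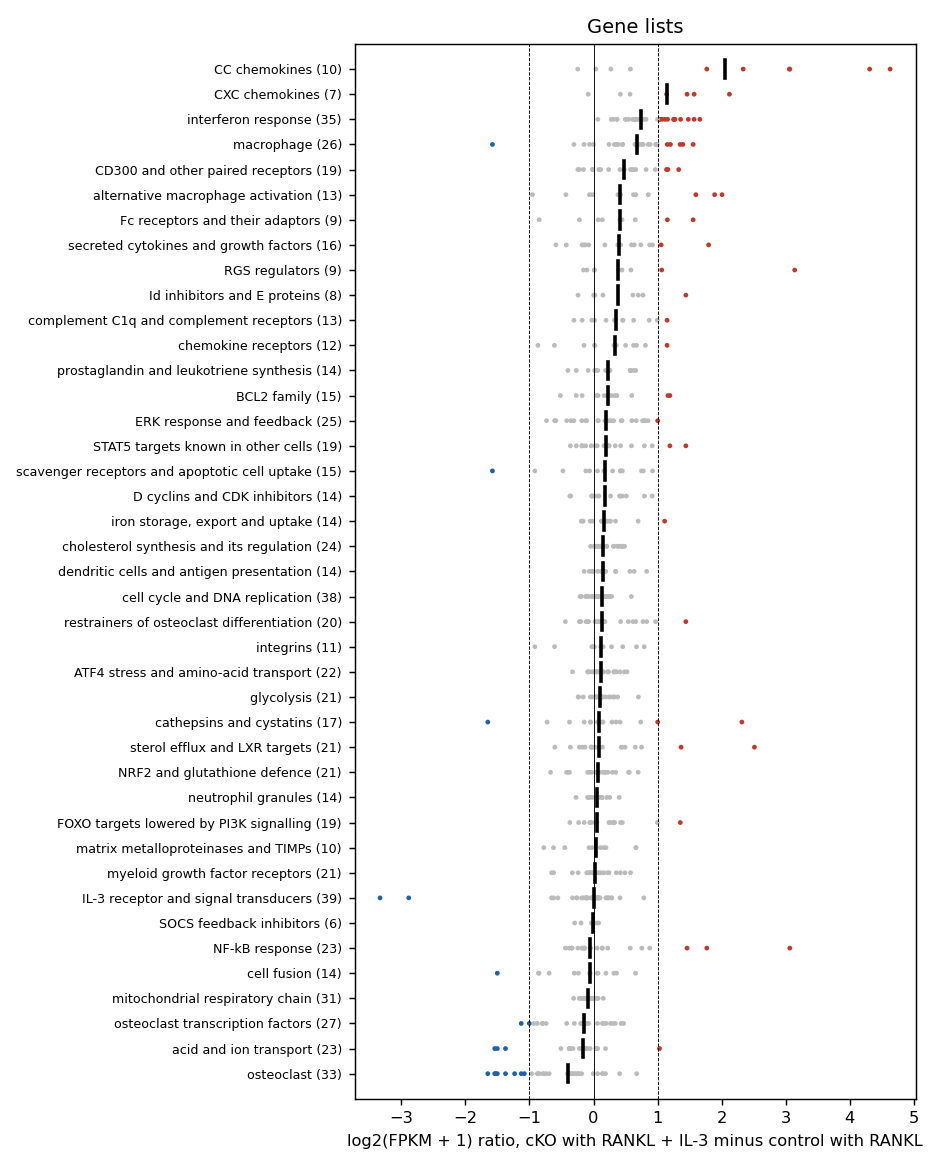
Ratio of each measured gene, cKO with RANKL and IL-3 minus control with RANKL on the log2(FPKM + 1) scale, by gene list, with the number of measured genes in brackets. Lists with at least 5 measured genes are shown, points outside the dashed lines are at least 2-fold apart, and black bars mark list medians, from -0.40 for osteoclast genes to 2.05 for CC chemokines.

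A further set of genes had a level in cKO cells outside the range of all 3 control libraries. *Rgs16*, a regulator of G protein signalling, was at 0.17, 6.70, 0.30 and 66.9 FPKM (ratio 3.14), and *Npl*, which breaks down sialic acid, was at 5.50, 2.82, 7.19 and 27.9 FPKM (ratio 2.92). *Ctse*, encoding cathepsin E, was at 0.69, 0.25, 0.18 and 5.21 FPKM (ratio 2.32). *Glul*, encoding glutamine synthetase, was at 93.8, 129, 105 and 18.3 FPKM (ratio -2.76), and *Fblim1*, a filamin-binding adaptor, at 13.1, 15.6, 12.0 and 1.31 FPKM (ratio -2.84). The first 3 were thus highest and the last pair lowest in the cKO library. *Xpr1*, a phosphate exporter, was at 7.52, 26.3, 11.8 and 9.35 FPKM (ratio -1.40), inside that range. *Npl*, *Rgs16* and *Glul* lie close together on chromosome 1, starting at bases 153503016, 153740353 and 153899929, with ratios in both directions. *Xpr1* starts at base 155275657 of the same chromosome. The part of this shared location in their values was not tested. *Gapdh*, a glycolytic gene often used as a reference, was at 1872, 2419, 2495 and 2660 FPKM (ratio 0.14).

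Some of the extreme values are uncertain because of near-identical copies or overlapping models. *Eif3j1* was at 0.04, 14.4, 0.04 and 0.04 FPKM and had the lowest ratio of all (-3.89), and *Amd1* was at 3.50, 0.01, 8.96 and 6.04 FPKM (ratio 2.80). Both have a copy elsewhere in the genome to which fragments could have been assigned. *Ugt1a6b* (1.57, 3.04, 2.37 and 35.5 FPKM, ratio 3.18) overlaps the other genes of its family, and the stefin genes *Stfa3*, *Stfa2l1*, *BC100530*, *Gm5483* and *2010005H15Rik* on chromosome 16 belong to a family of similar copies. Of the 139 genes apart, 60 were in a list and 79 in none.

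Markers of other cells were low in the libraries compared. All 16 B, T and NK cell markers in the table were under 1 FPKM in both, summing to 2.07 FPKM in control RANKL and 1.71 FPKM in cKO, and *Cd3e*, *Cd3g*, *Ncr1* and *Gzma* were at 0. Of 21 basophil, mast cell and eosinophil markers 18 were under 1 FPKM (sums 8.41 and 6.84 FPKM), with *Fcer1a*, *Tpsb2*, *Cma1* and *Mcpt4* at 0. Of 22 stromal and osteoblast markers 19 were (sums 8.90 and 7.86 FPKM), with *Sp7* and *Alpl* at 0. Neutrophil granule genes were present in both, with sums of 806 and 843 FPKM. None of 14 was 2-fold apart (median ratio 0.05), against 1.33% of all genes compared.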

How the data were processed

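Bulk RNA sequencing libraries had been made from mouse BMMs, 1 per condition. Libraries were prepared with a TruSeq RNA kit and sequenced on a HiSeq2000 system, and the submitters' processing notes name mm10, TopHat2 2.0.13 and Cufflinks 2.2.1. The authors deposited 1 table with 4 columns of FPKM per transcript, that is fragment counts scaled to transcript length and library size. Its header gives no unit, and FPKM was read from the software and the values. For the options of alignment and estimation, and the use of strand, the sources used here give nothing.

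FPKM of transcripts with the same gene ID were summed (33170 transcripts, 23920 genes). Genes at 1 FPKM or more in control RANKL or cKO RANKL and IL-3 were kept, and 29 small RNA genes among them were left out by symbol. Ratios were differences of log2(FPKM + 1), and 2-fold apart meant 1 or more on that scale. With 1 library a side, no test was run. Depth was estimated from the steps of 1 fragment on which the low values lay, in genes with 1 transcript and a length of 3000 nt or more, and 69.5% to 70.8% of them fell within 0.2 of a step (40.0% if evenly spaced). That step was fitted to the same values. The 95% counting intervals rest on this depth and cover counting error only. The counting and calling step was tested on simulated libraries with counting noise only and planted changes well past the 2-fold limit. Changes near that limit and the spread between cultures were not covered.

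The part of the data described, the 45 gene lists with 997 entries (990 found in the table), and the motifs were chosen with earlier results of these data known. Genes named were those of the *Stat5* study, the 15 highest and 15 lowest ratios at 5 FPKM or more, up to 4 per list, those at the limits, and members of the STAT5 target, osteoclast and IL-3 receptor lists. Other genes named (among them *Tlr7*, *Irf7*, further interferon and list genes, neighbours on a chromosome, and genes flagged as uncertain) and the interferon motif were chosen after their values were seen. Transcript lengths came from GENCODE M21, and gene positions and promoters from RefSeq, both on GRCm38. Alternatives were other pseudocounts, scalings, minima, gene levels and thresholds. Scripts ran in Python 3.11.15 with pandas 2.3.3, numpy 2.4.6, matplotlib 3.10.9 and scipy 1.17.1.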

Additional observations from a re-analysis of the deposited data

How the results depend on the processing

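No paired analysis was possible because each condition has 1 library and all labels carry the same replicate number. No gene named for this comparison changed sign while 2-fold apart under any alternative run. With a pseudocount of 0.1 FPKM, 162 genes were higher and 98 lower, and macrophage genes higher numbered 8. At 1.5-fold, 333 genes were higher and 191 lower, with 27 interferon genes, 15 macrophage genes and 5 STAT5 targets higher and 16 osteoclast genes lower. At 4-fold, 15 genes were higher and 5 lower, and none of these 4 lists kept a gene (0 each), while 5 CC chemokines did. With either scaling, another minimum, small RNA genes kept, or the most abundant transcript, higher genes numbered 81 to 114 and lower genes 28 to 46. Scaling moved all ratios by 0.02 or 0.03 on the log2 scale. Of 239 named genes, 14 not past the 2-fold limit as reported passed it with the smaller pseudocount, 3 crossed it with median scaling, 2 with upper quartile scaling and 2 with the most abundant transcript. Of 26 other list counts, 8 moved by over 1.5 times with the smaller pseudocount, 3 with median and 2 with upper quartile scaling, 17 at 1.5-fold and 25 at 4-fold. Depth limits genes near 1 FPKM, and the lack of replicates limits every ratio.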

Other observations

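Some called genes lay beside each other. Of the 139 genes 2-fold apart, 37 lay within 100 kb of another, in 15 groups, and no group held both directions at this distance. *Npl* and *Rgs16* (higher) and *Glul* (lower) are near each other on chromosome 1 but over 100 kb apart, so they formed no group. The largest group, on chromosome 19, held 6 genes (*Ch25h*, *Ifit2*, *Ifit3*, *Gm14446*, *I830012O16Rik* and *Ifit1*), all higher. *Ccl2*, *Ccl7* and *Ccl12* lay together on chromosome 11, and *Ccl6*, *Ccl3* and *Ccl4* formed another group on the same chromosome. *Dmpk*, a kinase of muscle and other cells (99.7, 25.8, 35.7 and 65.3 FPKM in M-CSF, RANKL, RANKL with IL-3 and cKO), and its neighbour *Dmwd* (22.6, 8.06, 15.6 and 21.2 FPKM) had ratios of 1.31 and 1.29. Overlapping models and family members that share sequence are part of these groups, and no background for the count was computed.

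Further genes outside the lists, picked after their values were seen, are given as values. *Tlr7*, an endosomal receptor of single-stranded RNA, was at 30.8, 6.25, 28.2 and 14.3 FPKM (ratio 1.08 on the log2(FPKM + 1) scale). *Ifi204*, of the interferon-inducible HIN family, was at 14.98, 6.28, 15.9 and 14.5 FPKM (ratio 1.09), and *Lgals9*, encoding galectin 9, was at 98.1, 30.1, 126 and 66.3 FPKM (ratio 1.11). *Upp1*, which cleaves uridine, was at 0.16, 3.61, 25.4 and 9.86 FPKM (ratio 1.24). Among the lower genes outside the lists, *Cd200*, an inhibitory surface ligand, was at 0.05, 6.96, 0.40 and 2.62 FPKM (ratio -1.14), and *Plod1*, a collagen lysyl hydroxylase, was at 76.5, 47.9, 39.9 and 18.7 FPKM (ratio -1.31).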
